A study of Mus musculus with 7 samples.

Results

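The genes described here encode the calcium/calmodulin-dependent kinases (CaM kinases), the Ras-ERK cascade and the cGMP-dependent kinases with neuronal nitric oxide synthase. They also encode DUSP, Sprouty and Spred proteins, which dampen MAP kinase signalling, for most of them that of ERK. The genes were chosen by name, with earlier results of these data known. They are 36 of the 55487 genes in the deposited count table, and all 36 were found by Ensembl identifier. The list held 20 kinases, 11 feedback inhibitors, 2 CaMKII inhibitors, 2 Ras GTPases and Nos1. The tissue came by microdissection out of the suprachiasmatic nucleus (SCN), seat of the circadian clock in the hypothalamus, in 3 advanced glaucoma and 4 control libraries. The advanced glaucoma mice were DBA/2J, which carry a spontaneous Gpnmb mutation and develop raised eye pressure with damage to the retina. The controls were DBA/2J-Gpnmb+SjJ mice, which share the DBA/2J background and lack that mutation. Both groups were kept in 12 h light and 12 h dark, the genotype label reads WT in both, and their sex, age and time of killing are not given in the sources used here.

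Light reaches the SCN through retinal ganglion cell axons that release glutamate and PACAP. Calcium entry in the receiving neurons activates CaM kinases, nitric oxide synthase with cGMP-dependent kinase, and Ras, which drives RAF, MEK and ERK. ERK then activates the RSK and MSK kinases, which phosphorylate CREB, and transcription of immediate early genes and clock genes follows. ERK output also induces its own brakes: nuclear dual-specificity phosphatases such as DUSP1, DUSP4 and DUSP5 remove phosphate from MAP kinases, and Sprouty and Spred proteins act upstream at the level of Ras and Raf. Transcripts of the kinases mostly report how much enzyme can be made, while transcripts of the inducible brakes also report recent activity.

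Libraries were made by BRB-seq, which counts the 3′ ends of transcripts, and held 3585907 to 5118764 counts in advanced glaucoma and 2174456 to 5285093 in control (two-sided exact permutation p = 0.429, n = 3 and n = 4). Same-group pairs differed by more than sampling of counts allows (chi-square per degree of freedom 4.48 to 10.6), so each library was counted as 1 sample. The control library scn_cont_565, the shallowest, stood apart on the first principal component (28.5% of the variance), at 44.6 where the other 6 lay between -20.57 and 3.7. Gpnmb had 0 to 2 counts in every library and could not check the labels. Of 10 markers of SCN neurons, all were detected in both groups, but their summed level was 95.8, 71.5 and 92.8 CPM (counts scaled to a common TMM library size) in advanced glaucoma and 313 to 546 CPM in control. The libraries did not overlap for 9 of the 10. The 8 myelin markers summed to 3123, 4450 and 2103 CPM in advanced glaucoma and 3884 to 5008 CPM in control. The 12 markers of cortex, hippocampus and striatum summed to 101 to 108 CPM in advanced glaucoma and 69.0 to 117 CPM in control, with Rtn4rl2 at 0 in every library. These sums overlapped only through scn_cont_565 (117 CPM), and the remaining controls had 83.25, 69.15 and 69.0 CPM. Of the 6 forebrain markers tested, 2 were higher and 1 lower without overlap (0 called by edgeR), with a median log2 fold change of 0.42. The 7 astrocyte markers summed to 2170 to 2314 CPM in advanced glaucoma and 2441 to 2710 CPM in control, without overlap, and 4 of the 7 were lower without overlap (1 called lower by edgeR). The 11 markers of neighbouring hypothalamus summed to 930.3 to 3254 CPM in advanced glaucoma and 1397 to 2951 CPM in control. Their sums overlapped, but 4 of the 11 were higher without overlap (1 called higher by edgeR), and the median log2 fold change over the list was 1.13. Microglial sums (6 genes) were 198 to 209 CPM in advanced glaucoma and 206 to 253.7 CPM in control, and endothelial sums (5 genes) 199 to 217 CPM in advanced glaucoma and 189 to 240.3 CPM in control. General neuronal markers (6 genes) summed to 2428 to 3082 CPM in advanced glaucoma and 2559 to 2937 CPM in control. Log2 fold changes ran from -5.41 to -0.86 over the SCN markers and from -1.06 to 5.17 over those of neighbouring hypothalamus. The values -5.41 and 5.17 were the lowest and highest of all genes tested. The part of these shifts in the values below was not tested. In bulk dissected tissue, fewer cells of a type, less RNA per cell and a different share of neighbouring tissue cannot be told apart.

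None of the listed genes that were tested passed the test in the glaucoma SCN. The intervals of 14 of the 20 kinase genes excluded a 1.5-fold difference either way. The lowest log2 fold changes were those of Dusp5, Spry4 and Dusp1, from -1.07 to -0.70. The other tested feedback inhibitors ran from -0.27 (Spred2) to 0.13 (Dusp3), among them the ERK-induced Dusp6 at 0.13. Of the 35 genes tested, 0 passed an adjusted p of 0.05 (edgeR quasi-likelihood test, Benjamini-Hochberg over 14020 genes, of which 0.471% passed). DESeq2 and limma-voom also called 0. At an unadjusted p under 0.05 there were 6 of 35 (17.1%), against 8.2% of all genes tested: Camk1g, Camk1, Camk2b and Map2k1 with higher values in advanced glaucoma, and Dusp1 and Spry4 with lower ones. Values of the groups were separate, with no overlap between libraries, for 5 of the 35 (14.3%), against 8.02% of all genes tested. The members' median log2 fold change (advanced glaucoma over control) was -0.01 and that of all genes -0.01. Members were divided in sign, with 16 above 0 and 19 below, where 48.5% of all genes were above 0.

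**Figure D1:**
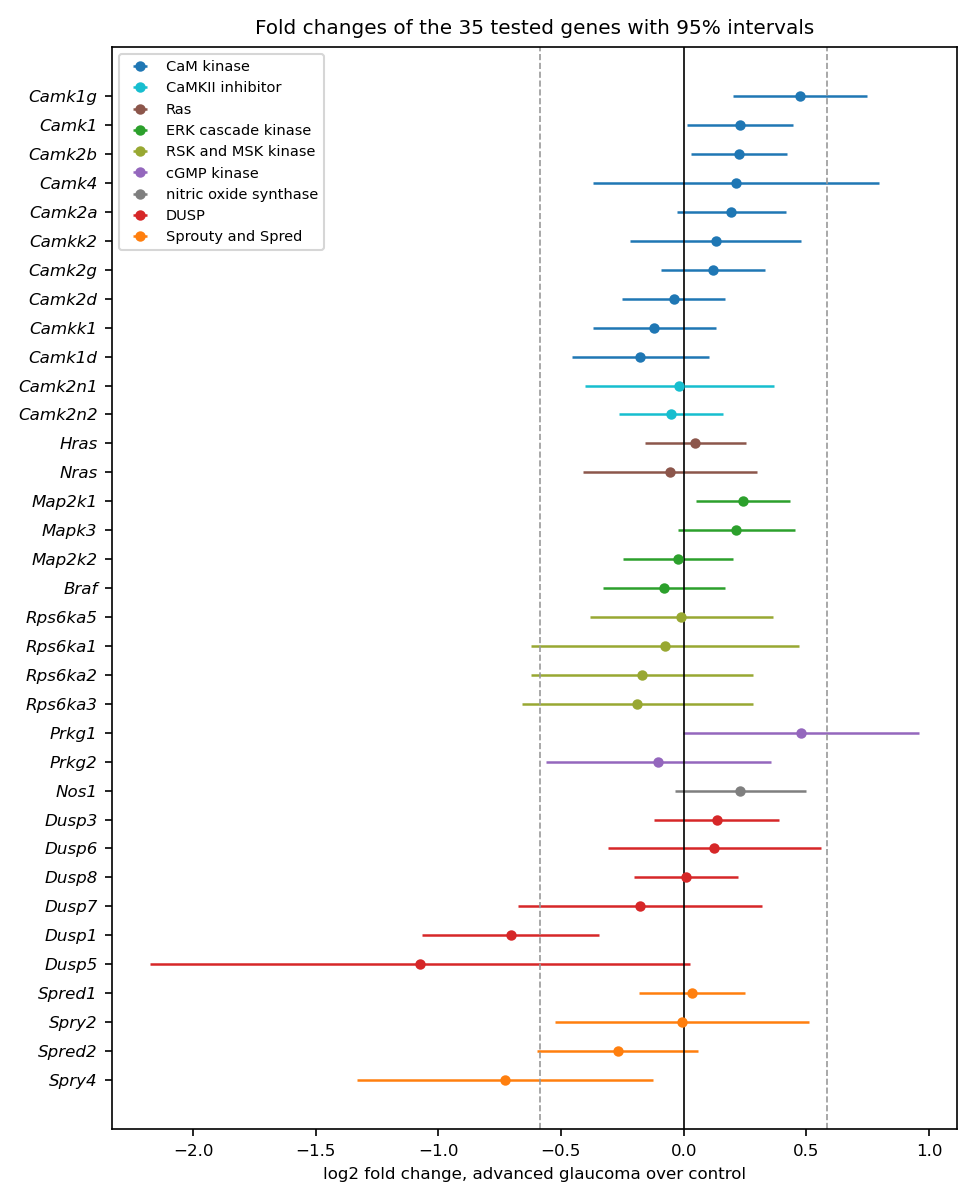
Log2 fold changes (advanced glaucoma over control, horizontal axis) of the 35 tested genes with 95% intervals from the edgeR fit, grouped by role; dashed lines mark 1.5-fold either way. Most kinase intervals lie between the dashed lines, and Dusp5, Spry4 and Dusp1 lie farthest to the left.

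The intervals bound how large a difference could be. For 24 of the 35 genes the 95% interval lay inside 1.5-fold in either direction, against 52.5% of all genes tested. Among the 20 members with a mean of at least 50 CPM, 19 lay inside that bound and Camk1g did not, and the median half-width of the interval was 0.22 on the log2 scale. Among the 15 members under 50 CPM, 5 lay inside it (Dusp6, Rps6ka5, Spry2, Nras and Prkg2), with a median half-width of 0.47. For the other 10 a change of more than 1.5-fold was not excluded at this depth.

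Most CaM kinase genes had higher mean values in advanced glaucoma, but none passed the test. Of 10 members, 7 had a log2 fold change above 0, and the median was 0.16. By edgeR, DESeq2 and limma-voom 0 of all 20 kinases were called higher (0.0927% of all genes tested by edgeR), and 4 of 20 had an unadjusted p under 0.05 with a higher value, against 4.05% of all genes. Camk1g, which encodes CaM kinase I gamma (ENSMUSG00000016179, chromosome 1, 193346346 to 193370298, minus strand, GRCm38), had 62.9, 68.1 and 82.3 CPM in advanced glaucoma (scn_glauc_152, scn_glauc_153, scn_glauc_154, the order kept for all values that follow). It had 48.7, 55.1, 57.5 and 42.9 CPM in control (scn_cont_565, scn_cont_567, scn_cont_568, scn_cont_570, likewise in this order). Every advanced glaucoma library lay above every control library, as for 4.12% of all genes tested. The means were 71.1 ± 10.04 CPM in advanced glaucoma and 51.0 ± 6.60 CPM in control (SD, n = 3 and n = 4). The log2 fold change was 0.48 (SE 0.133, 95% interval 0.20 to 0.75) with an edgeR adjusted p of 0.153, and 0.0275 to 0.905 across the alternatives. It passed only with no filter on low counts (0.0275).

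Camk1, the founding CaM kinase I gene, had 95.8, 93.7 and 92.0 CPM in the 3 advanced glaucoma libraries, against 82.9, 82.0, 82.8 and 73.1 CPM in the controls. The groups did not overlap, though the log2 fold change was small, 0.23 (95% interval 0.02 to 0.45; edgeR adjusted p = 0.564). Camk1 overlaps Ogg1 on the opposite strand across its 3′ end, and Ogg1 held 75 counts over all libraries where Camk1 held 2428. Camk1d, another CaM kinase I gene, had the lower mean in advanced glaucoma, at 50.8, 67.4 and 63.4 CPM in advanced glaucoma and 60.7 to 86.9 CPM in control (log2 fold change -0.18, 95% interval -0.46 to 0.10), with the groups overlapping.

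CaMKII, the multimeric kinase of the postsynaptic density, is built from 4 genes. Camk2b had 342, 391.9 and 429 CPM in advanced glaucoma, against 305, 349, 345 and 326 CPM in the controls. Library scn_glauc_152 lay within the control range, so the groups overlapped. Its log2 fold change was 0.22 (95% interval 0.03 to 0.42; edgeR adjusted p = 0.513). Camk2a, the forebrain-rich alpha subunit, had 195, 243 and 261 CPM in advanced glaucoma and 186 to 233 CPM in control (log2 fold change 0.19, 95% interval -0.03 to 0.42). Camk2g and Camk2d had log2 fold changes of 0.12 and -0.04, with intervals of -0.09 to 0.33 and -0.25 to 0.17. All 4 intervals leave out a 1.5-fold change in either direction.

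The remaining CaM kinases overlapped between the groups. Camkk1 and Camkk2 encode the kinases that activate CaM kinase I and CaM kinase IV. Camkk1 was at 57.8 ± 6.65 CPM in advanced glaucoma and 63.0 ± 2.45 CPM in control, and Camkk2 at 63.2 ± 11.02 CPM in advanced glaucoma and 56.7 ± 14.2 CPM in control (SD, n = 3 and n = 4). The lowest Camkk2 value, 38.2 CPM, was that of scn_cont_565. Camk4, a nuclear kinase that phosphorylates CREB, rested on 19 to 49 counts per library, and its interval of -0.37 to 0.80 is wide. Camk2n1 and Camk2n2 encode small proteins that bind and inhibit CaMKII. Camk2n1 had 306, 468 and 299 CPM in advanced glaucoma and 289 to 414 CPM in control, so the highest and nearly the lowest values came from the same group. Its log2 fold change was -0.02 (95% interval -0.40 to 0.37). Camk2n2 had the same order among the advanced glaucoma libraries, at 277, 335 and 246 CPM, against 277 to 317 CPM in control (log2 fold change -0.05, 95% interval -0.26 to 0.16).

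**Figure D2:**
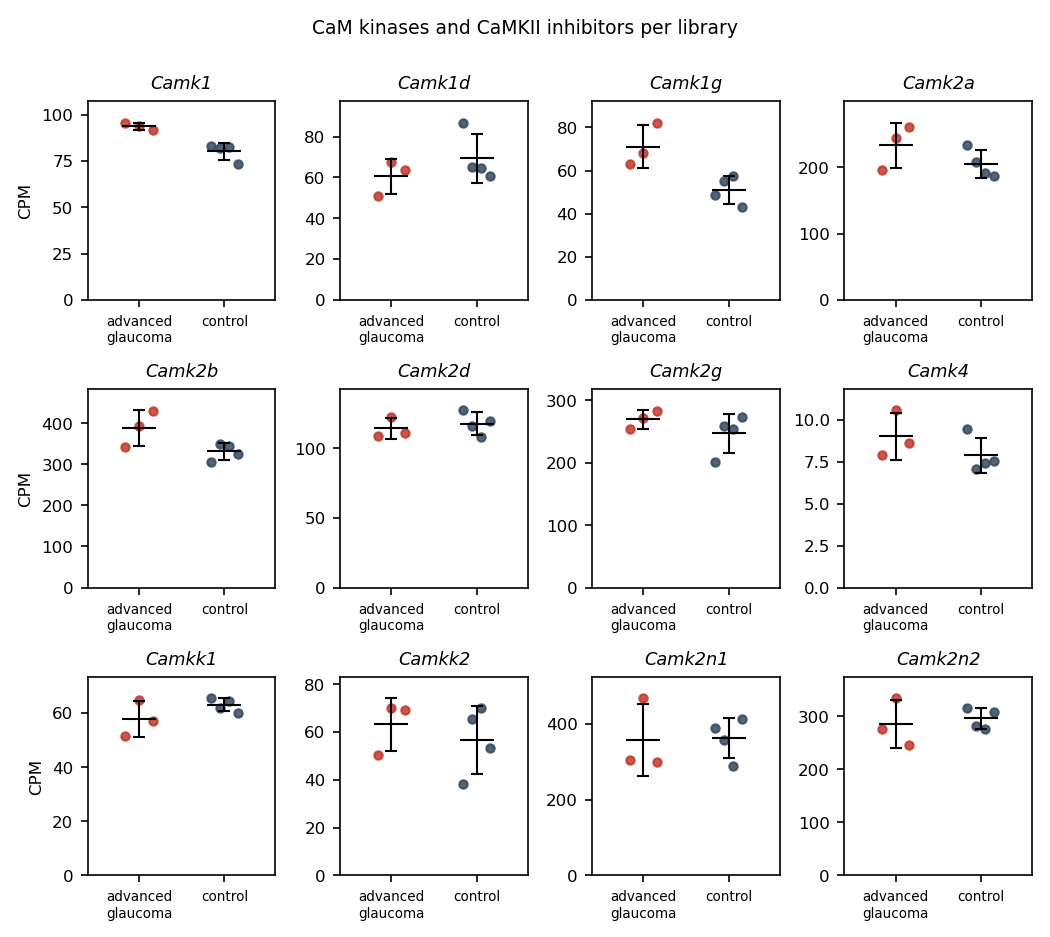
CPM of the 10 CaM kinase genes and the 2 CaMKII inhibitor genes in each library (points), with the mean and SD of each group (bars), advanced glaucoma on the left and control on the right. Camk1g and Camk1 are the panels whose groups do not overlap, and Camk2n1 has 468 CPM in scn_glauc_153 and 306 and 299 CPM in the other advanced glaucoma libraries.

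In the Ras-ERK cascade 1 gene, Map2k1, had no overlap between the groups, with higher values in advanced glaucoma, as for 4.12% of all genes tested. Map2k1 encodes MEK1, which phosphorylates ERK (ENSMUSG00000004936, chromosome 9, 64185770 to 64253631, minus strand). It had 254, 250 and 263 CPM in advanced glaucoma, against 214, 234, 219 and 199.7 CPM in the controls. The spread within each group was narrow, 255.8 ± 6.58 CPM in advanced glaucoma and 217 ± 14.0 CPM in control (SD, n = 3 and n = 4). The log2 fold change was 0.24 (SE 0.0924, 95% interval 0.05 to 0.43) with an edgeR adjusted p of 0.421, and 0.307 to 0.952 across the alternatives. Map2k2, which encodes MEK2, overlapped fully, at 132 ± 14.6 CPM in advanced glaucoma and 135 ± 14.2 CPM in control. Mapk3, which encodes ERK1, had 119, 151 and 161 CPM in advanced glaucoma and 106 to 141 CPM in control (log2 fold change 0.21, 95% interval -0.02 to 0.45). Hras and Nras, the GTPases that switch the cascade on, had log2 fold changes of 0.05 and -0.06. Hras varied little among the advanced glaucoma libraries, at 233 to 242 CPM, and more among the controls, at 198 to 267 CPM. Braf, which encodes the Raf kinase of neurons, was at 69.3 ± 1.946 CPM in advanced glaucoma and 73.7 ± 10.1 CPM in control. The 3′ ends of Braf and Ndufb2 overlap by 146 bases on opposite strands, and Ndufb2 held 4386 counts where Braf held 1997, so the Braf values may include reads of its neighbour if strand was not used.

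The kinases that ERK activates in turn were measured less precisely. All 4 had a negative log2 fold change, from -0.19 to -0.01, and the groups overlapped for each. Rps6ka5 encodes MSK1, a nuclear CREB and histone kinase. It had 25.6, 19.0 and 26.6 CPM in advanced glaucoma and 20.5 to 26.3 CPM in control (log2 fold change -0.01, 95% interval -0.38 to 0.36). Rps6ka1, Rps6ka2 and Rps6ka3, which encode RSK1, RSK3 and RSK2, rested on 20 to 107 counts per library, and their intervals reached from -0.66 to 0.47.

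Of the cGMP branch, Nos1, Prkg1 and Prkg2 were not called. Nos1, which makes nitric oxide on calcium entry, had 67.8, 72.4 and 63.4 CPM in advanced glaucoma, against 43.2, 61.5, 58.5 and 65.0 CPM in the controls. The groups overlapped through scn_cont_570, and scn_cont_565 held the low value (log2 fold change 0.23, 95% interval -0.04 to 0.50). Prkg1, cGMP-dependent kinase I, had 19.1, 15.1 and 16.6 CPM in advanced glaucoma and 16.9, 9.49, 13.4 and 10.3 CPM in the controls (log2 fold change 0.48, 95% interval -0.002 to 0.96; edgeR adjusted p = 0.614). Here scn_cont_565 was the control inside the advanced glaucoma range. Prkg1 contains Cstf2t on the opposite strand, with 1876 counts against 403 for Prkg1. Prkg2, cGMP-dependent kinase II, which has been linked to light-induced phase shifts in mice, was at 14.2 ± 2.60 CPM in advanced glaucoma and 15.2 ± 2.35 CPM in control (log2 fold change -0.10).

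**Figure D3:**
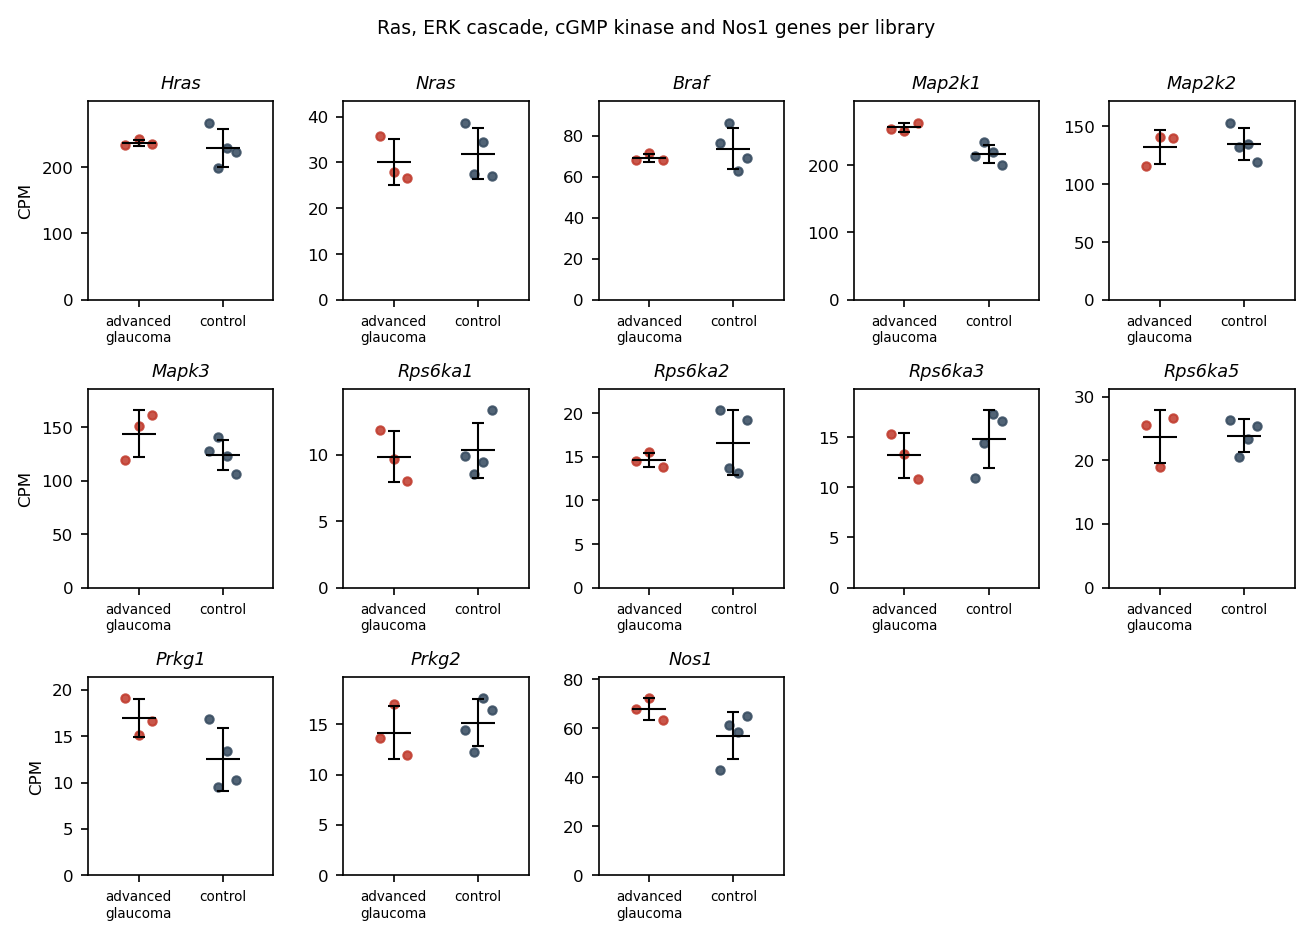
CPM of the Ras, Raf, MEK, ERK, RSK, MSK, cGMP kinase and nitric oxide synthase genes in each library (points), with group mean and SD (bars), advanced glaucoma on the left. Map2k1 is the panel whose groups do not overlap, at 250 to 263 CPM in advanced glaucoma and 199.7 to 234 CPM in control.

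The feedback inhibitors held the largest differences in the list. Of 11 members 10 were tested, since Dusp4 fell under the filter on low counts, and 0 were called by edgeR, DESeq2 or limma-voom (2 of 10 at an unadjusted p under 0.05, both lower, against 4.15% of all genes tested). Their median log2 fold change was -0.09, against 0.06 for the 20 kinases and -0.01 for all genes. The feedback median lay above 0 without scn_cont_565 (0.01) or scn_cont_570 (0.02), and the kinase median at -0.01 among genes with a mean of at least 10 CPM. The genes tested also differed in these fits: 9 feedback inhibitors, without Dusp5, and 19 kinases, without Camk4. The part of that difference in the medians was not tested. Dusp1, Dusp5 and Spry4 had the lowest log2 fold changes, from -1.07 to -0.70, and the other 7 tested members ran from -0.27 to 0.13.

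Dusp1 encodes MKP-1, a nuclear phosphatase of p38, JNK and ERK that neurons induce within minutes of stimulation (ENSMUSG00000024190, chromosome 17, 26505590 to 26562128, minus strand). It had 23.1, 20.04 and 17.7 CPM in advanced glaucoma, against 38.7, 33.7, 27.0 and 34.6 CPM in the controls. Every advanced glaucoma library lay below every control library, as for 3.91% of all genes tested. The means were 20.3 ± 2.67 CPM in advanced glaucoma and 33.5 ± 4.85 CPM in control (SD, n = 3 and n = 4). The log2 fold change was -0.70 (SE 0.175, 95% interval -1.07 to -0.34), with an edgeR adjusted p of 0.0771. Over its alternatives the adjusted p ran from 0.0310 (no filter on low counts, where alone it passed) to 0.703 (myelin markers as a covariate), and the log2 fold change from -0.81 to -0.62. Without scn_cont_565 it was -0.64 (edgeR adjusted p = 0.136). Ergic1 overlaps the annotated extent of Dusp1 by 640 bases on the opposite strand, away from its 3′ end, and had 89.5 to 94.4 CPM in advanced glaucoma and 72.0 to 89.0 CPM in control.

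Dusp4 and Dusp5 encode further inducible nuclear phosphatases of the family, MKP-2 and an ERK-specific enzyme. Dusp4 (chromosome 8, 34807297 to 34819894, plus strand) had 5, 3 and 2 counts in advanced glaucoma, and 4, 11, 14 and 11 counts in the controls. As levels these were 0.985, 0.646 and 0.554 CPM in advanced glaucoma and 1.98 to 3.47 CPM in control, without overlap. Summed over libraries, 10 counts in advanced glaucoma stood against 40 in control, a depth-adjusted ratio of 0.279 (exact 95% interval 0.124 to 0.568, which covers counting error at most). With no filter on low counts its log2 fold change was -1.81 (edgeR adjusted p = 0.404). Dusp5 (chromosome 19, 53529109 to 53542431, plus strand) had 11, 3 and 8 counts in advanced glaucoma and 7, 6, 21 and 19 counts in control. Its levels were 2.17, 0.646 and 2.22 CPM in advanced glaucoma, against 3.48, 1.84, 5.21 and 3.42 CPM in the controls, so scn_cont_567 overlapped the advanced glaucoma range. The log2 fold change was -1.07 (95% interval -2.17 to 0.03; edgeR adjusted p = 0.633). Leaving out scn_glauc_153 moved it to -0.68. Dusp2, a nuclear phosphatase gene of the same kind outside the list, did not have lower values. It had 1.38, 3.66 and 3.05 CPM in advanced glaucoma and 0.180 to 3.22 CPM in control. Its log2 fold change was 0.57 (95% interval -0.72 to 1.86, edgeR adjusted p = 0.902).

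The motifs through which CREB and serum response factor reach immediate early genes were looked for in the promoters. RefSeq promoter windows (GRCm38.p6, 250 bases before to 50 after the transcription start) were held for 27 of the 36 genes, and 4 are printed 5′ to 3′ on the gene's strand. Dusp1 (chr17:26508423-26508722, minus strand) and Dusp5 (chr19:53528895-53529194, plus strand) are shown as genes with lower values, Dusp8 (chr7:142095235-142095534, minus strand) as a phosphatase gene at control level, and Camk1g (chr1:193370233-193370532, minus strand) as the kinase gene with the smallest p. Dusp4 and Spry4, which also had lower values, were among the 9 genes without a window and could not be looked at. Capitals mark matches on either strand to the cAMP response element TGACGTCA, its half-site TGACG, the E-box CACGTG and the CArG box of the serum response element. The full element contains the half-site on both strands.
Dusp1: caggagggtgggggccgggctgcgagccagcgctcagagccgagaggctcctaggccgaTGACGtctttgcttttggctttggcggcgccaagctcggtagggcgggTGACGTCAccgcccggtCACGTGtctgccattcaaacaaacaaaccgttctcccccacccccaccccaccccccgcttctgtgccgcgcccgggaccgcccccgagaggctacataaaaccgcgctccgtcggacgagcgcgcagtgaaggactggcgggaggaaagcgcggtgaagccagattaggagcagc
Dusp5: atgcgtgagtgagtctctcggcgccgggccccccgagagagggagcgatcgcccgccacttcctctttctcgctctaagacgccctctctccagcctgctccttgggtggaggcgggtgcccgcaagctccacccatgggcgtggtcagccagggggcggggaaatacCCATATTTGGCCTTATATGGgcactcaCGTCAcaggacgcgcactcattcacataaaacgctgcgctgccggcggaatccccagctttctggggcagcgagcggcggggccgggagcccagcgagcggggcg
Dusp8: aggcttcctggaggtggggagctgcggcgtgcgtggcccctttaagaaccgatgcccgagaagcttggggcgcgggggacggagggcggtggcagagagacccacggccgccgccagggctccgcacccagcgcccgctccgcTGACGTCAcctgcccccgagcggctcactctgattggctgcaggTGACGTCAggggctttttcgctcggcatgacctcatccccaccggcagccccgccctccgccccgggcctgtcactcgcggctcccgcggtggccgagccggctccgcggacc
Camk1g: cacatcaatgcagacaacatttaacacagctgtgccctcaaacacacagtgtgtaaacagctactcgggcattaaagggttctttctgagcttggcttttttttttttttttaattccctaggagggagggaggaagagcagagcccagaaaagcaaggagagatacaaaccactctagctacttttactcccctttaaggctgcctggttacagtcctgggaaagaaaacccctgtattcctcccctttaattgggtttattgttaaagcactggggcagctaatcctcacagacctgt

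Dusp1 held 1 full cAMP response element starting 143 bases before the start, a separate half-site 191 bases before it and an E-box 126 bases before it. Dusp5 held 2 adjoining CArG boxes, starting 82 and 72 bases before the start, and a half-site 55 bases before it. Dusp8 held 2 full cAMP response elements, 107 and 63 bases before the start, and Camk1g held none of the motifs. Of all 32851 windows, 1.79% held TGACGTCA, 20.8% TGACG, 7.15% CACGTG and 1.63% a CArG box. Among the 27 genes, TGACGTCA was found in 3 (Braf, Dusp1 and Dusp8), TGACG in 13 (6 of 14 kinases and 4 of 9 feedback inhibitors with a window), CACGTG in 2 (Nras and Dusp1) and a CArG box in Dusp5. A match is a description of these letters and not a site of binding. The genes with the full element had log2 fold changes of -0.70 (Dusp1), 0.01 (Dusp8) and -0.08 (Braf), none of them called.

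The other phosphatase genes differed less. Dusp6, the cytoplasmic ERK phosphatase also induced by ERK, had 21.7, 14.9 and 14.96 CPM in advanced glaucoma and 14.95 to 17.4 CPM in control (log2 fold change 0.13, 95% interval -0.31 to 0.56). Without scn_glauc_152 its log2 fold change was -0.09. Dusp7, its closest relative, had 10.4 to 13.6 CPM in advanced glaucoma and 10.4 to 17.8 CPM in control. Dusp8, which acts on JNK and p38, was measured precisely at 203 ± 10.01 CPM in advanced glaucoma and 202 ± 24.8 CPM in control (log2 fold change 0.01, 95% interval -0.20 to 0.22). Dusp3, a small atypical phosphatase, was at 62.2 ± 4.12 CPM in advanced glaucoma and 56.5 ± 5.99 CPM in control.

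Among the Sprouty and Spred genes, Spry4 separated the groups. It had 9.85, 6.68 and 4.15 CPM in advanced glaucoma, against 10.4, 13.5, 10.9 and 11.7 CPM in the controls, from 15 to 65 counts per library. The gap between the groups was small, from 9.85 to 10.4 CPM, and the lowest value came from scn_glauc_154. The log2 fold change was -0.73 (SE 0.294, 95% interval -1.33 to -0.12), with an edgeR adjusted p of 0.459, and 0.247 to 0.946 across the alternatives. Without scn_glauc_154 it was -0.49. Spred2 had 38.2, 31.7 and 29.4 CPM in advanced glaucoma and 46.2, 39.5, 32.5 and 43.0 CPM in the controls (log2 fold change -0.27, 95% interval -0.60 to 0.06), with overlap. Spred1, the Ras inhibitor whose loss in humans causes Legius syndrome, was at 98.9 ± 9.47 CPM in advanced glaucoma and 96.8 ± 5.18 CPM in control. Spry2 was at 10.9 ± 1.26 CPM in advanced glaucoma and 10.9 ± 1.55 CPM in control.

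**Figure D4:**
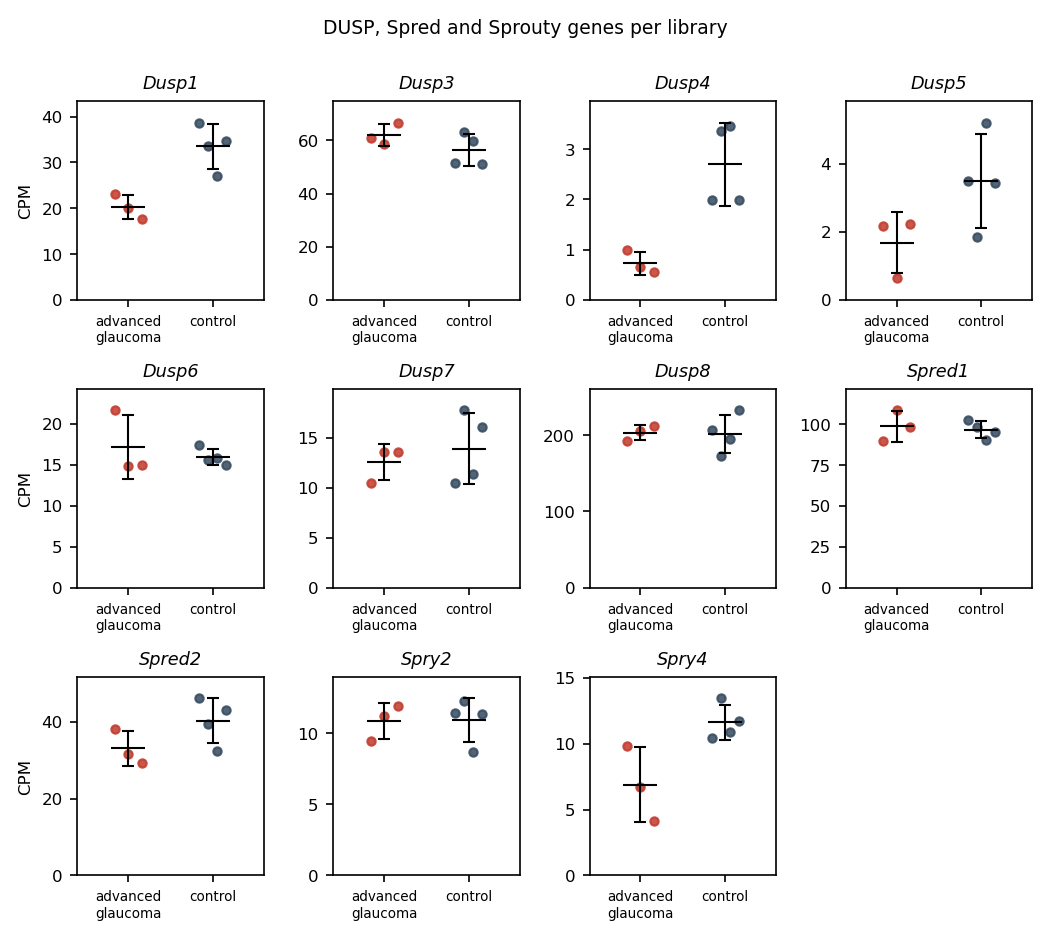
CPM of the 11 feedback inhibitor genes in each library (points), with group mean and SD (bars), advanced glaucoma on the left and control on the right. Dusp1, Dusp4 and Spry4 are the panels without overlap; Dusp8, Spred1 and Spry2 have nearly equal means.

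Kinases and feedback inhibitors were also set side by side within each library. For the 20 kinases the average of log2(CPM + 1), less that of the controls, came to 0.01, 0.13 and 0.09 in advanced glaucoma, with -0.03 to 0.03 in the controls. Over the 11 feedback inhibitors this level was -0.21, -0.37 and -0.35 in advanced glaucoma, with -0.04 to 0.03 in the controls. The median over the same 11 genes was closer to control, at -0.18, -0.09 and -0.09 in advanced glaucoma and -0.08 to 0.05 in control, and a mean weighs large differences of single genes more than a median does. Over Dusp1, Dusp4 and Dusp5 alone the mean was -0.61, -1.08 and -0.84 in advanced glaucoma and -0.11 to 0.18 in control. Of these, Dusp4 had 2 to 14 counts per library and was not tested, and Dusp5 had 3 to 21. For the 10 CaM kinases the mean was -0.03 in scn_glauc_152, within the controls at -0.07 to 0.03, and 0.21 and 0.19 in scn_glauc_153 and scn_glauc_154. These class levels are descriptions of genes chosen with earlier results known, and the difference between classes was not tested.

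**Figure D5:**
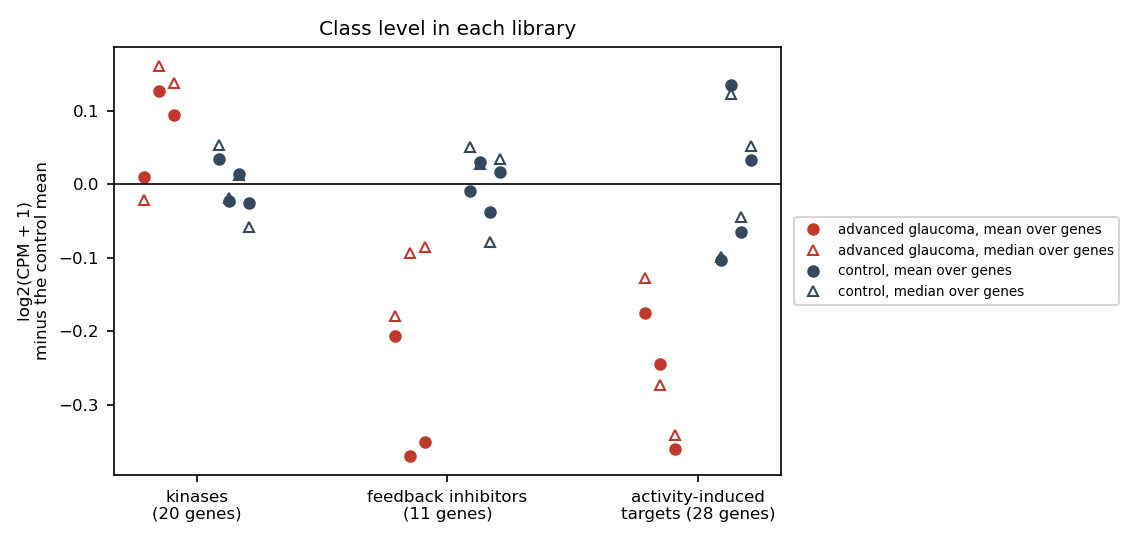
Level of 3 gene classes in each library, as log2(CPM + 1) relative to the mean of the controls, averaged over the genes (filled circles) or as the median over them (open triangles), advanced glaucoma left of control in each class. The feedback means lie at -0.37 to -0.21 in advanced glaucoma, lower than their medians at -0.18 to -0.09.

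Other genes of the pathway were not called in the main fit either. Of 73 further genes of calcium, Ras-MAPK and cGMP signalling, 72 were in the table under these symbols and 69 were tested. By edgeR, DESeq2 and limma-voom 0 were called, 11 of 69 (15.9%) had an unadjusted p under 0.05 against 8.2% of all genes, and 43 had a log2 fold change above 0. The median was 0.03. The 4 with the smallest p were Pde1b, Dusp14, Ppp3ca and Pde1c. Pde1b, a calmodulin-activated phosphodiesterase, had 33.9, 52.6 and 37.1 CPM in advanced glaucoma and 52.8 to 70.5 CPM in control (log2 fold change -0.52, edgeR adjusted p = 0.184). Its groups did not overlap, by a narrow gap, and it was called under 2 of its 14 alternatives. Dusp14, a small phosphatase of MAP kinases, had 29.3 to 31.0 CPM in advanced glaucoma and 17.8 to 23.3 CPM in control (log2 fold change 0.56, edgeR adjusted p = 0.202), without overlap. Ppp3ca, the catalytic subunit of the calmodulin-dependent phosphatase calcineurin, had 473, 643 and 696 CPM in advanced glaucoma and 412 to 511 CPM in control (log2 fold change 0.37, edgeR adjusted p = 0.212). The groups overlapped for Ppp3ca, and it was called under 2 of its 14 alternatives. Pde1c, of the same phosphodiesterase family as Pde1b, was at -0.93 on the same scale (edgeR adjusted p = 0.273).

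Transcripts that calcium and ERK signalling induce were lower for 3 genes. Of 28 activity-induced targets 27 were tested, 3 fell and 0 rose by edgeR, against 0.378% of all genes that were lower. Their median log2 fold change was -0.35, against -0.01 for all genes. Their level within libraries, on the scale used for the classes, was -0.17, -0.24 and -0.36 in advanced glaucoma and -0.10 to 0.14 in control. Vgf, a secreted peptide precursor, fell by 0.98 on the log2 scale, Fos, the AP-1 subunit gene, fell by 0.97 and Nr4a3, an orphan nuclear receptor gene, fell by 1.26 (edgeR adjusted p = 2.82e-05, 0.00160 and 0.0176). Nptx2, a secreted neuronal pentraxin, had higher values and was named after they were seen. It had 26.4, 35.98 and 55.7 CPM in advanced glaucoma and 8.44 to 24.5 CPM in control, without overlap (log2 fold change 1.13, edgeR adjusted p = 0.428), and was called under 1 of its 14 alternatives (adjusted p 1.99e-06 to 0.931 across them). Nr4a3 lost its call under 3 of its 14 alternatives and Fos under 1. Fos had 19.6 to 24.04 CPM in advanced glaucoma and 39.5 to 44.5 CPM in control, without overlap, as had Dusp1. The SCN neuron markers were lower in the same libraries, and their part in these values was not tested.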

How the data were processed

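RNA of microdissected SCN (600 μm sections) was sequenced in 3 advanced glaucoma and 4 control libraries. Per the labels' protocols, libraries were made with the MERCURIUS BRB-seq kit. The authors deposited raw counts per gene, whole numbers. The build mm10 and the tools STAR, HTSeq, DESeq2 and featureCounts are listed per the submitters' processing notes. Their roles and versions, the annotation, the strand setting and any use of molecular identifiers are not given in the sources used here. The counts may be reads rather than molecules. Intervals on counts cover counting error at most, and are too narrow if the same molecule was read more than once.

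Symbols came from a gene name table (55141 of 55487 identifiers) and coordinates from GENCODE M21 on GRCm38, the assembly of mm10. The test was edgeR 4.0.16 in R 4.3.3: filterByExpr by group (14020 genes kept), TMM factors, robust quasi-likelihood test with group as the only term, Benjamini-Hochberg over all genes, threshold 0.05. CPM uses TMM-scaled library sizes. SE is the size of the log2 fold change divided by the square root of F, and 95% intervals use the t quantile. Alternatives were RLE factors, library size, no filter, a mean of at least 10 CPM, DESeq2 1.42.0, limma-voom 3.58.1 with sample weights, the mean of 8 myelin markers as a covariate, and leaving out each library. The scripts were tested on simulated data. All 36 genes were to be named, and of the further pathway genes and targets those that passed, else the 4 with the smallest p. Members and lists were chosen with earlier results of these data known. Nptx2, Dusp2 and the overlapping genes Ergic1, Cstf2t, Ndufb2 and Ogg1 were named after values were seen. The labels do not say that each library is a separate animal, so p-values measure only the spread between these samples. Of the table, 0 columns were left out.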

Additional observations from a re-analysis of the deposited data

Results flagged for a closer look

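In scn_cont_570, Camk1 lay at 73.1 CPM, far below the other 3 controls at 82.0 to 82.9 CPM, which themselves lay within 1 CPM of each other. In scn_cont_565, Camk1d lay at 86.9 CPM, above the other controls at 60.7 to 64.9 CPM. The gap check was run on the 4 controls for each of the 36 genes, and chance marks about 1 group in 20.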

How the results depend on the processing

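No paired analysis was possible because the groups share no replicate number. Single genes kept their side of the threshold and their sign in 451 of 489 refits over 14 alternatives. Dusp4, not tested in the main fit, was counted by another criterion. Its refits counted as kept where the log2 fold change lay within the control SD of its main log2 ratio of means. Camk1g (0.49, adjusted p = 0.0275 by edgeR) and Dusp1 (-0.69, adjusted p = 0.0310) were called with no filter on low counts, and 15 genes, none beyond 0.19 in size, changed sign without a call under some alternative. With no filter 1 member was lower (1 feedback inhibitor) and 1 higher (1 kinase), the other pathway genes had 1 lower and 2 higher, and all genes had 108 lower and 94 higher, against 53 and 13 in the fit reported. DESeq2 called 24 genes higher. With myelin markers as a covariate 15 genes were lower and 1 higher, and the medians were 0.075 over members, 0.11 over kinases and -0.18 over feedback inhibitors. The feedback median was -0.16 with no filter, and with a mean of at least 10 CPM it was -0.0019 and the kinase median -0.012. The filter also changed which genes entered these medians. With no filter they held 11 feedback inhibitors, Dusp4 included. With a mean of at least 10 CPM they held 8, without Dusp5 and Spry4, and 19 kinases, without Camk4. The part of these genes in the shifts was not tested, nor was that of the covariate. Leaving out 1 library, all genes ran from 24 (without scn_glauc_154) to 69 lower and from 4 to 29 higher; members, kinases and feedback inhibitors stayed at 0 in each direction; other pathway genes ran from 0 to 1 lower and from 0 to 2 higher. The medians ran from -0.036 to 0.034 over members, from 0.036 to 0.12 over kinases and from -0.23 to 0.020 over feedback inhibitors, above 0 without scn_cont_565 or scn_cont_570. Dusp5 was not tested without scn_cont_565, scn_cont_568 or scn_cont_570, which left 9 feedback inhibitors. Dusp4 was tested when an advanced glaucoma library was left out, which gave 11. Dusp4 had an adjusted p under 4 alternatives, Dusp5 under 10, and Spry4 and Camk4 under 13. Depth limits the genes with few counts, among them Dusp4, Dusp5, Spry4, Camk4 and the RSK genes.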
